A study of Saccharomyces cerevisiae with 14 samples.

Results

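The late galactose interval is the last step of a growth competition in yeast, from time point T2 to time point T3 of a culture in which the kinase LIMK1 was induced by galactose. It was taken as every pair of libraries labelled with the galactose culture at T2 and at T3, joined within a screen, which gave 6 of the 24 count libraries of the series, 2 from each of 3 screens. Each library held the reads of all 16000 variants of the N-terminus of human cofilin-1, 8000 with Ser and 8000 with Thr at position 3, and any of 20 residues at positions 2, 4 and 5. The strain was TeTO7-COF1 (TH_5610), whose own cofilin gene COF1 (YLL050C, chromosome XII, 39804 to 40414, assembly R64) is repressed by doxycycline (DOX). It carried a GAL1-FLAG-LIMK1 plasmid and the library of His6-tagged cofilin on a plasmid with the constitutive GPD promoter. Galactose cultures were grown in 2% raffinose, 1% galactose and 10 mg/L DOX, glucose cultures in 2% glucose and 10 mg/L DOX, and both were diluted to an OD600 of 0.1 between time points. All cultures were therefore grown with COF1 repressed and carried the LIMK1 plasmid, and the cultures differed in sugar as well as in LIMK1. The screens were run from frozen aliquots of 1 transformed pool, so the spread between them covers culture and sequencing and not the transformation.

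Cofilin severs and depolymerizes actin filaments and is essential in yeast. LIMK1 phosphorylates cofilin on Ser3, which blocks its binding to actin, and LIM kinases are known to prefer Ser to Thr. A sequence that cannot bind actin supports little growth with or without the kinase, so the glucose culture was used to tell such sequences from those that support growth.

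The coding sequences of positions 2 to 5 are shown for the sequences on which the results turn, with the codon of position 3 in capitals. They are named by the residues at positions 2, 3, 4 and 5 in single-letter code. The native human and yeast sequences and the Thr3 form of the human sequence come first, then forms with Tyr4, Trp4 and Phe4.
ASGV: gctAGCggtgtt
RSGV: cgtAGCggtgtt
ATGV: gctACCggtgtt
ASYV: gctAGCtacgtt
ATYV: gctACCtacgtt
ASWV: gctAGCtgggtt
ASFM: gctAGCttcatg
PSFM: ccgAGCttcatg

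The galactose libraries held 11562967 to 42922753 reads at T2 and 12244253 to 37413623 at T3. The median variant had 32 to 117 reads at T2 and 16 to 69.5 at T3, and 5563 variants had 100 or more reads in every T2 library. The pool narrowed over the interval, since the 100 most frequent variants held 8.73% to 11.5% of reads at T2 and 12.6% to 15.0% at T3. Ser3 variants held 29.6% to 34.3% of reads at T2 and 23.1% to 25.3% at T3, and the ranges did not overlap. Reads come from PCR, so their number overstates the number of independent molecules.

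Levels are given as reads per 1000000 reads of the library (rpm). The native human sequence ASGV was at 207, 206 and 227 rpm in screens 1 to 3 at T2 and at 78.3, 90.0 and 86.9 at T3. Every screen was lower at T3, and the groups did not overlap. Its log2 change was −1.33 (SE 0.14, n = 3 screens, adjusted p = 1.31e-06 by edgeR's quasi-likelihood test over all 16000 variants). The native yeast sequence RSGV was at 143, 132 and 191 rpm at T2 and 45.5, 83.6 and 79.2 at T3, and fell by 1.19 on the log2 scale (SE 0.19, n = 3, edgeR adjusted p = 9.59e-05). The Thr3 form of the human sequence, ATGV, was at 704, 574 and 452 rpm at T2 and at 815, 789 and 602 at T3. It rose within each screen, by 0.36 on the log2 scale (SE 0.08, n = 3, edgeR adjusted p = 0.00233), although the values of T2 and T3 overlapped between screens. In the glucose culture of the same interval ASGV went from 483, 609 and 430 to 847, 707 and 558 rpm, and ATGV from 389, 376 and 421 to 480, 611 and 564. Both forms were thus higher at T3 than at T2 in every glucose screen, while in galactose the Ser3 form was lower and the Thr3 form higher. The difference between the log2 changes in galactose and in glucose was −1.79 for ASGV (SE 0.18, edgeR interaction test, adjusted p = 8.45e-06, n = 3) and −0.11 for ATGV (SE 0.15, edgeR adjusted p = 0.77, n = 3).

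**Figure D1:**
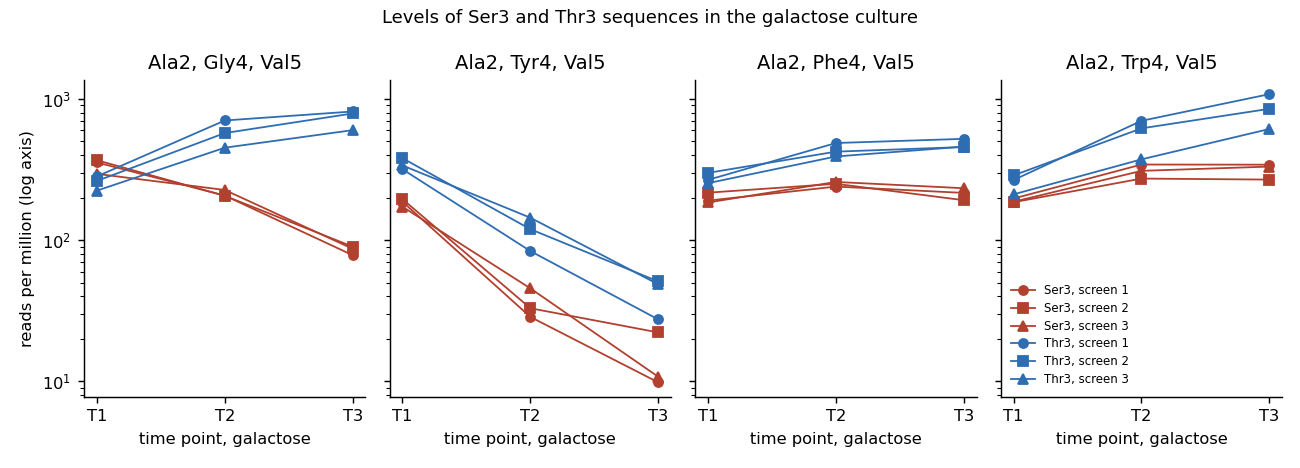
Levels in rpm (log axis) at T1, T2 and T3 in galactose of 4 sequences with Ala2 and Val5, with Ser3 in red, Thr3 in blue and 1 symbol per screen. The Ser3 form with Gly4 went from 206 to 227 at T2 to between 78.3 and 90.0 at T3, both forms with Tyr4 were lower at T3 in every screen, and the Ser3 forms with Phe4 or Trp4 stayed between 192 and 343.

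Across the library, 3179 variants fell (19.9% of the 16000 tested) and 693 rose (4.33%) at an adjusted p under 0.05, and 3836 of these 3872 had the same sign in every screen. The falls were 1951 Ser3 and 1228 Thr3 variants, and the rises 76 Ser3 and 617 Thr3 variants. Without an adjustment 5591 variants had a p under 0.05. The log2 changes of all variants correlated between screens (Pearson's r between 0.243 and 0.264), and those of the 5563 variants with 100 or more reads at T2 more closely (r between 0.719 and 0.807), as a description over variants of 1 pool. The number that fell was 1785 without screen 3, and it also depended on the scaling. With TMM 1822 fell and 1578 rose, with DESeq2's size factors 1611 and 1669, and with libraries scaled on the sequences that carry Asp, Glu, Lys, Arg or His at position 5 1447 and 1686. These scalings moved every change up by 0.46, 0.54 and 0.57 on the log2 scale (means of 3 screens). Medians of groups are given for total reads, and a group whose median lies above −0.46 would be above 0 under each of the 3 scalings, while a group below −0.57 stays below 0 under all of them.

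Variants were split by a glucose score that uses no galactose library, which compares a variant's share of reads at T2 in glucose with its share at T0 (ratios averaged over the 3 screens, then log2). A score above 0 marks a sequence that gained share during growth on cofilin without LIMK1. Of 1833 Ser3 variants with a score above 0, 1122 fell and 74 rose, and of 2266 such Thr3 variants, 350 fell and 617 rose. The median log2 change of the Ser3 variants was −0.91, −0.70 and −0.997 in screens 1 to 3 (mean −0.87 ± 0.15 SD), and that of the Thr3 variants was 0.09, −0.01 and 0.16 (mean 0.08 ± 0.09 SD). The difference between the classes was −1.01, −0.69 and −1.15 (mean −0.95 ± 0.24 SD, n = 3, exact permutation of signs, two-sided p = 0.25, the smallest that 3 screens allow). The difference cannot move with the scaling, which shifts all variants of a screen alike. The Ser3 variants with a score above 0 held 28.0%, 27.2% and 31.1% of the reads at T2 and 22.0%, 22.1% and 23.9% at T3. The Thr3 variants with a score above 0 held 66.0%, 66.0% and 60.0% at T2 and 74.8%, 73.7% and 72.1% at T3. Both shifts went the same way in every screen without overlap between T2 and T3.

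Sequences with a score of 0 or below had medians of −0.63 ± 0.25 (Ser3, n = 6167) and −0.59 ± 0.25 (Thr3, n = 5734; mean ± SD of 3 screens), and 829 Ser3 and 878 Thr3 variants among them fell. The median variant had 20 reads (Ser3) and 30 reads (Thr3) at T2, where the 0.5 reads added before taking logs draw ratios toward 0 only slightly. Some of these variants had 100 or more reads in every T2 library, a rule that uses the T2 reads and so favours lower changes. Their medians were −1.42 ± 0.44 (577 Ser3) and −1.15 ± 0.32 (969 Thr3). The cause of the difference from the medians without this rule was not tested. In glucose the same 577 and 969 variants had medians of −0.72 ± 0.08 and −0.72 ± 0.07.

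**Figure D2:**
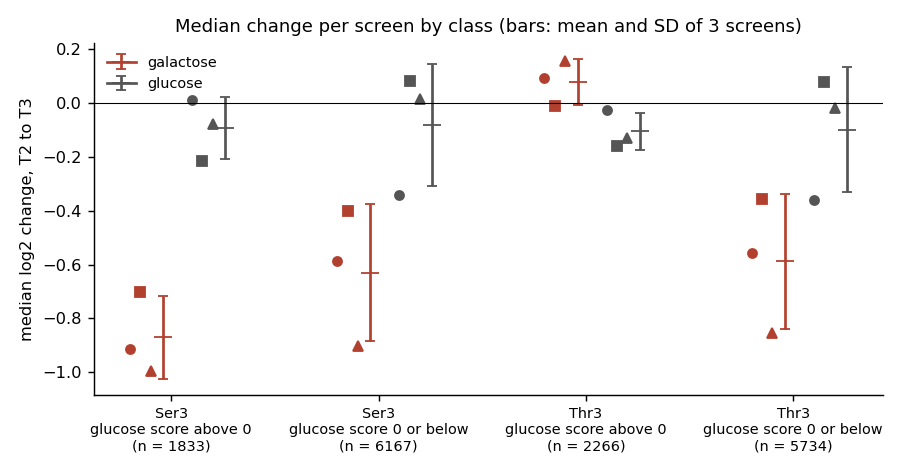
Median log2 change from T2 to T3 in each screen (symbols) for 4 classes of variants, in galactose (red) and glucose (gray), with the mean and SD of 3 screens as bars. The Ser3 class with a glucose score above 0 lies between −0.997 and −0.70 in galactose and between −0.22 and 0.01 in glucose, and the Thr3 class with a score above 0 between −0.01 and 0.16 in galactose.

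Within Ser3, the residue at position 4 divided the changes. This residue follows the phosphorylated Ser directly and is Gly in human and yeast cofilin. Among Ser3 variants with a glucose score above 0, 169 of 176 with Gly4 fell and 0 rose (19.9% and 4.33% of all variants fell and rose), with a median of −1.63 ± 0.35 (SD, n = 3 screens). The medians of Ala4 (−1.68 ± 0.53), Ser4 (−1.68 ± 0.50) and Thr4 (−1.69 ± 0.49) lay within the spread of that value. Of these, 59 of 67, 53 of 57 and 40 of 45 variants fell and 0 rose. The other residues with a median below −1 were Cys, Val, Tyr, Asn, Gln, His, Lys, Arg, Asp and Glu, from −1.50 ± 0.40 (Arg4) to −1.35 ± 0.41 (Glu4, 4 variants), and their neighbours in this order differed by less than the spread. Tyr4, an aromatic residue, was among them at −1.43 ± 0.35 with 109 of 111 variants that fell.

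The other 6 residues lay apart from these 14 in every screen. The medians were 0.03 ± 0.16 for Leu4 (n = 214), −0.05 ± 0.11 for Phe4 (n = 155), −0.07 ± 0.13 for Pro4 (n = 38), −0.19 ± 0.03 for Ile4 (n = 153), −0.22 ± 0.07 for Trp4 (n = 155) and −0.51 ± 0.01 for Met4 (n = 165). Leu4 and Phe4 did not differ beyond their spread, and Met4 lay below the other 5 in every screen. Of the Leu4 variants 34 fell and 27 rose, of the Phe4 variants 38 fell and 36 rose, and of the Met4 variants 87 fell and 0 rose. Under the other scalings the medians of Leu4, Phe or Trp4, Ile4 and Pro4 were above 0 (0.27 to 0.60), and that of Met4 was −0.06, 0.02 and 0.05, so no direction was set for Met4. Val and Ile differ by a methylene group, and Phe and Tyr by a hydroxyl group. With Val4 the Ser3 medians were −1.67, −1.02 and −1.70 in screens 1 to 3, and with Ile4 −0.15, −0.21 and −0.21. With Tyr4 they were −1.54, −1.04 and −1.71, and with Phe4 −0.06, −0.15 and 0.06, without overlap within either pair of residues.

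**Figure D3:**
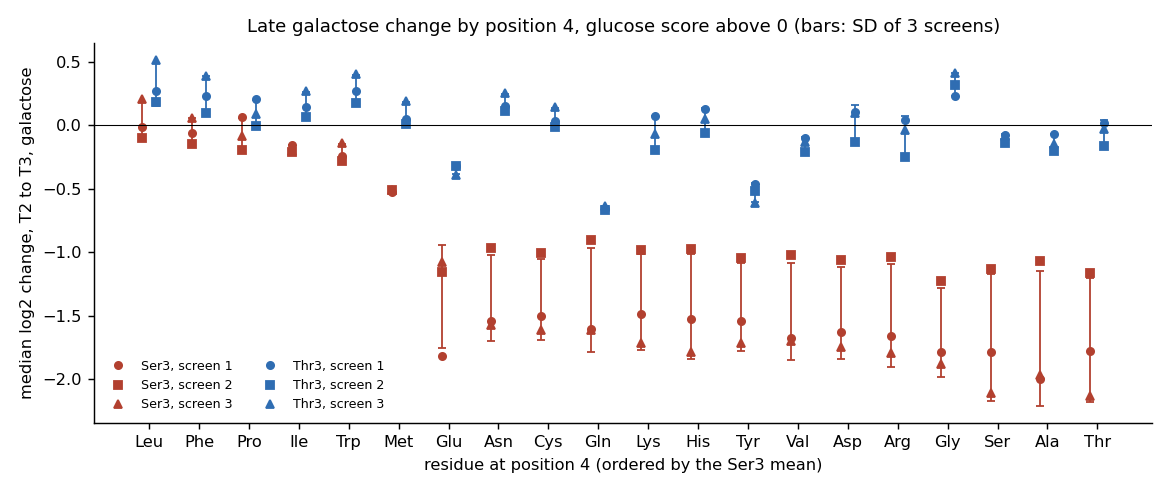
Median log2 change from T2 to T3 in galactose for each residue at position 4 among variants with a glucose score above 0, per screen (symbols), with the SD of 3 screens as bars, for Ser3 (red) and Thr3 (blue). The Ser3 medians of Leu, Phe, Pro, Ile, Trp and Met lie between −0.52 and 0.20 and those of the other 14 residues at −0.90 or below, while the Thr3 medians lie at −0.66 or above.

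The 76 Ser3 variants that rose carried Phe4 (36), Leu4 (27), Trp4 (5), Ile4 (4), Pro4 (2), Asp4 (1) or Glu4 (1). At position 5, Met was found in 27 of them and Thr in 14, out of 318 and 206 Ser3 variants with a glucose score above 0. At position 2, the numbers that rose among such variants were 10 of 109 with Trp, 9 of 66 with Lys, 8 of 84 with Arg and 7 of 90 with Pro. Under the 3 other scalings 312 to 349 Ser3 variants rose, of which 28 to 31 had a residue other than Leu, Ile, Met, Phe, Trp or Pro at position 4 and 0 had Gly4. The highest change among Ser3 variants was that of PSFM, which was at 590, 771 and 507 rpm at T2 and at 1025, 1114 and 824 at T3 (log2 change 0.68, SE 0.08, n = 3, edgeR adjusted p = 2.59e-06). The next 4 were WSFT, RSFM, LSFM and KSFM, at 0.54 to 0.62, so all 5 carried Phe4 and 4 of them Met5. None of these 5 passed an edgeR test against its Thr3 form, which was added after seeing the data (Thr3 minus Ser3 differences of −0.22 to 0.08, adjusted p = 0.546 to 0.920). The 5 were picked for high Ser3 changes and tested on those same changes, which lowers the difference. The test therefore cannot tell whether the 2 forms changed alike. Over all 20 residues at position 2, the difference in screens 1 to 3 was 0.17, 0.21 and 0.22 with Phe4 and Met5. With Phe4 and Thr5 it was 0.33, 0.34 and 0.36. The 5 Ser3 variants with the most reads at T3 were ASFM, RSFM, ISFT, FSLF and RSFT, which rose by 0.30 to 0.59. ASFM was at 1786, 1665 and 1162 rpm at T2 and at 2351, 2092 and 1590 at T3, and its rise in glucose, 0.43 ± 0.23 on the log2 scale (mean ± SD, n = 3), was of the same size as in galactose (0.39, SE 0.06, edgeR adjusted p = 5.58e-05).

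The fixed scan of position 4 with Ala2, Ser3 and Val5 showed the same division in single sequences. ASFV was at 240, 251 and 258 rpm at T2 and at 216, 192 and 233 at T3, and ASWV at 343, 273 and 310 and then at 343, 269 and 332. Neither passed the test (edgeR adjusted p = 0.141 and 0.895, n = 3), nor did ASLV (log2 change 0.21, SE 0.12, edgeR adjusted p = 0.249). ASYV was at 28.6, 33.0 and 45.6 rpm at T2 and at 9.84, 22.2 and 10.8 at T3, and fell by 1.39 on the log2 scale (SE 0.37, edgeR adjusted p = 0.00869, n = 3), but did not pass without screen 3 (adjusted p = 0.131). The forms with Ala4, Ser4, Pro4, Glu4 and Lys4 had means of 1.19 to 13.1 rpm at T2 and glucose scores below 0. Of these ASAV, ASPV and ASEV passed the test as lower, with adjusted p values of 0.0307, 0.0104 and 0.0427, and none of these calls remained without screen 3, nor that of ASAV without screen 1 (0.360).

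Among native-like sequences with Gly4 and Ser3, all of ASGM, ASGL, ASGI, ASGT, LSGV, LSGM, DSGV and FSGL fell. The change was smallest for LSGM, at −0.80 (SE 0.13), and lowest for LSGV, at −2.04 (SE 0.28; edgeR adjusted p = 0.000145 and 2.67e-05, n = 3). These sequences differ only by Met or Val at position 5, and the difference between them was not tested. ASGM was at 324, 252 and 548 rpm at T2 and at 95.2, 105 and 219 at T3. LSGM lost its call under the other scalings (adjusted p = 0.210 to 0.547). The Thr3 form of each of the native-like sequences rose, from 0.23 (LTGV) to 0.64 (ATGM) on the log2 scale, although LTGV was not called when any single screen was left out (adjusted p = 0.0560, 0.202 and 0.0586), RTGV without screen 2 (0.0527) and FTGL without screen 1 or 3 (0.0808 and 0.129). FSGL was at 1.04 to 4.42 rpm at T2, and its call (adjusted p = 0.0271) was lost without screen 1 or 3 (0.305 and 0.0649).

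Pairs of sequences that differ only at position 3 put the Ser3 and Thr3 forms side by side within a screen. The limma test of 1 difference per screen called 0 of 8000 pairs at an adjusted p under 0.05, and the lowest adjusted p was 0.205. At an unadjusted p under 0.05, 1198 pairs had a higher change for the Thr3 form and 308 for the Ser3 form. An edgeR test of the same pairs on the reads, added after seeing the data, called 1064 pairs with the Thr3 form higher (13.3% of 8000) and 34 with the Ser3 form higher (0.425%). It took the reads of both forms in a library as separate observations and did not pair the forms within a screen. This leaves more residual degrees of freedom than 1 difference per screen. The reason for the unlike numbers called by limma and edgeR was not tested. Where both forms had a glucose score above 0 (1634 pairs), the Thr3 form was higher in every screen in 1327 pairs and the Ser3 form in 32. Their median difference was 0.82, 0.60 and 0.99 in screens 1 to 3 (mean 0.80 ± 0.19 SD).

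The pair difference followed position 4. It was 1.90 ± 0.35 (SD, n = 3 screens) over 144 pairs with Gly4, 1.65 ± 0.55 over 113 with Ala4 or Ser4 and 1.80 ± 0.53 over 41 with Thr4. It was 0.28 ± 0.03 over 192 pairs with Leu4, 0.32 ± 0.08 over 126 with Ile4, 0.38 ± 0.05 over 286 with Phe4 or Trp4 and 0.65 ± 0.11 over 155 with Met4. By edgeR 128 of the 144 Gly4 pairs and 27 of the 192 Leu4 pairs had a higher Thr3 form, and in 0 of these pairs was the Ser3 form higher. For DSGV against DTGV, the difference was 2.27 (SE 0.19, edgeR adjusted p = 2.03e-06, n = 3; limma adjusted p = 0.205). DSGV was at 109, 113 and 185 rpm at T2 and 33.2, 40.0 and 35.0 at T3, and DTGV was at 1707, 1398 and 1031 and then at 2030, 2023 and 1404.

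Tyr4 and Gln4 were exceptions among residues with low Ser3 changes, because their Thr3 forms had the lowest medians. The Ser3 median of Gln4 was −1.38 ± 0.41 (24 variants). The pair difference was 0.65 ± 0.21 over 108 Tyr4 pairs with both scores above 0, against 1.90 ± 0.35 for Gly4. Among Thr3 variants with a score above 0, 78 of 126 with Tyr4 fell and 5 rose (medians −0.47, −0.52 and −0.61 in screens 1 to 3), and 44 of 79 with Gln4 fell and 4 rose (median −0.65 ± 0.02 SD). Under the other scalings the Tyr4 median was −0.08, 0.01 and 0.03. ATYV was at 83.8, 120 and 144 rpm at T2 and at 27.5, 51.0 and 48.7 at T3, without overlap. It fell by 1.47 on the log2 scale (SE 0.20, edgeR adjusted p = 1.63e-05, n = 3), close to ASYV at 1.39, and the difference between the forms was −0.08 (SE 0.42, edgeR adjusted p = 0.952). Over all 20 residues at position 2 with Tyr4 and Val5, the Thr3 minus Ser3 difference was 0.69, 0.18 and 0.77 in screens 1 to 3. This single pair thus does not stand for the group. In glucose ATYV changed by −0.31 ± 0.35 (mean ± SD), and the change in galactose was lower than in glucose by −1.15 (SE 0.24, edgeR adjusted p = 0.0058, n = 3).

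The residue at position 5 went with the size of the Tyr4 change, and this was not limited to Tyr4. Position 5 is Val in human and yeast cofilin. Over all 20 residues at position 2, Thr3 variants with Tyr4 had medians of −1.22 ± 0.20 with Val5 (17 of 20 fell), −0.99 ± 0.22 with Ile5 (18 fell) and −1.06 ± 0.30 with Leu5 (17 fell). With Thr5 the median was −0.33 ± 0.05 (11 fell, 1 rose), and with Met5 −0.04 ± 0.03 (4 fell, 3 rose). The Ser3 forms with Tyr4 ran from −1.70 ± 0.42 with Val5 to −0.51 ± 0.10 with Met5. With Gly4 and Ser3 the range over these residues was narrower, from −1.22 ± 0.21 with Met5 to −1.88 ± 0.45 with Cys5, and 117 of 120 variants fell. Met4 with Ser3 had medians of −0.87 ± 0.17 with Val5, −1.03 ± 0.29 with Cys5 and −0.16 ± 0.08 with Met5, and 18, 17 and 6 of 20 fell. Thr3 medians ran from −0.65 ± 0.18 (Val5) to 0.41 ± 0.11 (Thr5) with Pro4 and from −0.61 ± 0.09 (Val5) to 0.28 ± 0.06 (Thr5) with Ala4. With Val4 they ran from −0.96 ± 0.26 (Cys5) to −0.05 ± 0.12 (Thr5). Part of these falls was also seen in glucose. There the Thr3 medians were −0.60 ± 0.11 with Pro4 and Val5, −0.53 ± 0.21 with Val4 and Cys5 and −0.21 ± 0.08 with Ala4 and Val5. With Tyr4 and Val5 the glucose median was −0.16 ± 0.16. In the edgeR test between the sugars, 0, 0, 2 and 11 of 20 variants of these groups were lower in galactose. The Thr3 ranges were narrower with Gly4 (0.17 to 0.56) and Leu4 (0.33 to 0.54).

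**Figure D4:**
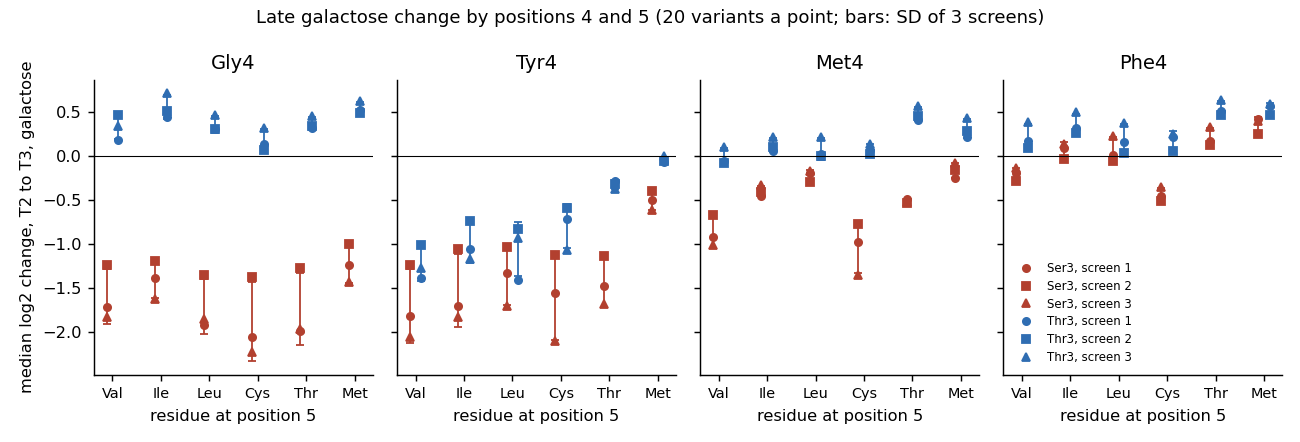
Median log2 change from T2 to T3 in galactose over the 20 variants that share positions 3, 4 and 5, per screen (symbols), with the SD of 3 screens as bars, for Ser3 (red) and Thr3 (blue). As means of 3 screens, the Thr3 medians with Tyr4 go from −1.22 with Val5 to −0.04 with Met5. With Gly4 the means of 3 screens lie between 0.17 and 0.56 for Thr3 and at −1.22 or below for Ser3, and single screens reach beyond these limits.

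Among Thr3 variants with a score above 0, the highest medians belonged to Leu4 (0.32 ± 0.17), Gly4 (0.32 ± 0.09), Trp4 (0.28 ± 0.12) and Phe4 (0.24 ± 0.15), which did not differ beyond their spread. Of these, 95 of 200, 84 of 155, 72 of 157 and 71 of 159 rose and 4, 11, 3 and 13 fell. By position 5, 181 of 360 with Met5 and 175 of 351 with Thr5 rose, each with a median of 0.30 ± 0.11, against 1 of 83 with Pro5 (34 fell, median −0.46 ± 0.07). That Pro5 median is not below 0 under every scaling. Over all 400 Thr3 variants with Pro5 the median was −0.72 ± 0.18 in galactose and −0.33 ± 0.10 in glucose, and 0 passed the edgeR test between the sugars. By position 2, Gly2 stood lowest at −0.35 ± 0.06 with 43 of 98 that fell, and the other 19 residues lay between −0.02 and 0.18. The 5 highest Thr3 variants were STLM, YTLT, CTFT, LTLT and RTGM, at 0.69 to 0.77. CTFT also had the most reads at T3 of these, and went from 1884, 2150 and 1511 to 2994, 3369 and 2652 rpm (log2 change 0.71, SE 0.05, n = 3, edgeR adjusted p = 9.91e-08). A second Ser at position 2, 4 or 5 was present in 291 Thr3 variants with a score above 0, of which 62 fell and 43 rose (median −0.06 ± 0.06), and a Thr at these positions in 522, of which 61 fell and 207 rose (0.20 ± 0.08).

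At position 2, which lies before the phosphorylated residue, the Ser3 medians varied less than at position 4. Lys2 stood highest at −0.32 ± 0.07 (30 of 66 fell, 9 rose) and Val2 lowest at −1.13 ± 0.28 (59 of 80 fell, 1 rose). With Gly4 the 20 residues at position 2 gave medians from −2.03 (Asp2, 5 variants) to −1.45 (Trp2 and Tyr2), and 0 variants rose. With Leu4 they ran from −0.36 ± 0.09 (Asn2) to 0.29 ± 0.19 (Trp2), where 4 of 10 variants with Asn2 fell and 3 of 9 with Trp2 rose. These counts were not particular to Asn2 and Trp2, since 4 of 10 also fell with Thr2 and with Val2, and 5 of 11 rose with Tyr2. Of all 214 such Leu4 variants 34 fell and 27 rose.

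Most of the 10 lowest changes named by the fixed rule belonged to sequences that had not gained share in glucose. The 5 lowest Ser3 variants that passed with 100 or more reads in every T2 library were VSDC, LSHQ, ISGQ, ISSD and RSVV (−2.73 to −2.52), and the 5 lowest Thr3 variants were CTEL, NTIS, ETYL, STCS and ITSP (−2.89 to −2.38). LSHQ was at 30.9, 34.2 and 17.9 rpm at T2 and at 2.07, 8.66 and 3.84 at T3. Of these 10, only RSVV had a glucose score above 0. The minimum on the T2 reads favours variants that were high at T2, so these extremes are a description.

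The glucose culture over the same interval served as the control without LIMK1. Its change from T2 to T3 shares the T2 glucose libraries with the glucose score, so the class medians there are not independent of the score. The fit of the glucose libraries alone called 0 variants (edgeR, lowest adjusted p = 0.0723; 1921 fell and 396 rose at an unadjusted p under 0.05), and no other tool was run on it. The median changes of the Ser3 and Thr3 variants with a score above 0 were −0.09 ± 0.12 and −0.11 ± 0.07 in glucose. The test of the difference between the sugars called 729 variants lower in galactose (4.56% of the 16000) and 22 higher (0.138%). The lower ones were 642 Ser3 and 87 Thr3 variants, and 600 of the Ser3 variants had a score above 0. Without screen 1 the numbers were 266 and 7, without screen 3 they were 334 and 0, and without screen 2 they were 860 and 67. With the other scalings 221 to 424 were lower and 30 to 67 higher.

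By position 4, the 642 Ser3 variants that were lower in galactose than in glucose had Gly4 (147), Tyr4 (85), Asn4 (69), Cys4 (66), Val4 (54) and Met4 (44) most often, and Phe4 in 1. Each residue stands at position 4 in 400 Ser3 variants. Among Ser3 variants with a score above 0, 600 of 1833 were lower in galactose. The numbers were 139 of 176 with Gly4, 26 of 67 with Ala4 and 40 of 165 with Met4, so the share with Met4 was below that of the class. Of the 87 Thr3 variants, 44 had Tyr4 and 12 Gln4. Of the 22 Thr3 variants that were higher in galactose, 17 had Cys2, a count chosen after its values were seen. Among them CTHV rose in galactose by 0.37 on the log2 scale and its change was 0.75 above that in glucose (edgeR adjusted p = 0.00154 and 0.00268), while CTFC did not pass in galactose alone (log2 change 0.05, edgeR adjusted p = 0.787) and lay 1.20 above glucose (edgeR adjusted p = 0.00652). Cys2 variants with Thr3 and a score above 0 had a median of 0.15 ± 0.06 in galactose and −0.23 in glucose.

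The interval before it, from T1 to T2 in galactose, shares the T2 libraries, and its values are given beside those of the late interval with no test of the difference. Over all 16000 variants the median change was −1.91 ± 0.46 from T1 to T2 and −0.49 ± 0.19 from T2 to T3. Ser3 variants with a score above 0 had −0.45 ± 0.25 and then −0.87 ± 0.15, and such Thr3 variants 0.43 ± 0.09 and then 0.08 ± 0.09. Ser3 variants with Gly4 had −1.40 and then −1.63, and those with Leu4 0.51 and then 0.03. ASGV changed by −0.67 from T1 to T2 and by −1.33 from T2 to T3.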

How the data were processed

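Raw read counts per variant were used as the authors deposited them, 1 table per screen. The authors recovered plasmids from yeast, amplified the variable region with barcoded primers, sequenced the product and tallied the reads of each variant, and the program that assigned reads to variants is not given in the sources used here, nor is any use of the random bases in the primers as molecular identifiers. Within a screen, the glucose and galactose libraries of a time point shared an index and differed in a barcode inside the read. The lowest number of galactose reads among variants with 1000 or more glucose reads bounds how many reads could have been assigned to the wrong culture. As a share of the glucose reads it was 1.49%, 0.364% and 2.91% at T2 in screens 1 to 3. At T3 it was 0.622%, 3.78% and 1.09%. The T-1 columns (3) were not used. All 16000 coding sequences translated to their names.

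Fractions are reads over the library total, and log2 ratios were taken within a screen after adding 0.5 reads. edgeR 4.0.16 (quasi-likelihood F test, library size equal to total reads, no filter) was fitted to the 6 galactose libraries with the screen as a block, and to 12 galactose and glucose libraries with the culture as a block for the difference between sugars. Screen numbers pair T2 with T3, since both are the same serially diluted culture. After the means over screens were removed, T2 and T3 of the same screen correlated with r = 0.678, 0.568 and 0.638, and those of different screens with −0.391 to −0.199 (4477 variants with 100 or more reads in every galactose T2 and T3 library). With the means removed, positive values within screens force negative ones between screens, so the latter are not separate evidence for the pairing. Pairs were tested with limma 3.58.1 on 1 difference per screen. The edgeR test of pairs had a block for each screen and form and tested the interaction of time and form. P values were adjusted by the Benjamini-Hochberg method across all variants or pairs, and 0.05 was the threshold. Medians are given as mean ± SD of 3 screens. DESeq2 1.42.0 and the alternatives of the closing section were run one choice at a time, and the scripts were tested on simulated counts. R 4.3.3, Python 3.11.15, numpy 2.4.6, pandas 2.3.3 and matplotlib 3.10.9 were used.

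Named variants are those of a list of native and scanned sequences with their Thr3 partners, the 5 highest and 5 lowest that passed with the same sign in every screen and 100 or more reads in every galactose T2 library, the same for pairs (no pair passed with limma), and the 5 with the most reads at T3. The members, residue groups and lists were chosen with earlier results of these data known.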

Additional observations from a re-analysis of the deposited data

Results flagged for a closer look

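The changes from T2 to T3 in galactose and in glucose differed by the edgeR interaction test for 729 variants that were lower and 22 that were higher in galactose, with the adjustment over all 16000 variants and 3 screens. Among the named native-like and scanned sequences this was the case for 9 Ser3 sequences with Gly4. The difference, galactose minus glucose on the log2 scale, was −1.79 for ASGV, −1.80 for RSGV, −1.87 for ASGM, −2.34 for ASGL, −1.79 for ASGI, −1.77 for ASGT, −2.39 for LSGV, −1.24 for LSGM and −2.34 for DSGV. The only Thr3 sequence of the list that passed was ATYV, at −1.15. The cultures differ in sugar and in LIMK1, and these cannot be told apart within 1 sequence.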

How the results depend on the processing

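The counts moved with the scaling and with the block. Of the galactose changes, TMM gave 1822 that fell and 1578 that rose, DESeq2's size factors 1611 and 1669, and scaling on charged residues at position 5 1447 and 1686, against 3179 and 693 with total reads. The median of the Ser3 variants with a glucose score above 0 was −0.41, −0.33 and −0.31 under these scalings and that of the Thr3 variants 0.54, 0.62 and 0.64. Their difference could not move, because a scaling shifts all variants of a screen alike, so it is no check of that difference. The difference between sugars was lower for 424, 221 and 391 variants, and higher for 67 (TMM) and 60 (size factors). The fit without the replicate block called 727 that fell and 11 that rose. Leaving out 1 screen gave 1785 to 3385 that fell and 486 to 699 that rose, 266 to 860 lower and 0 to 67 higher in galactose than in glucose, and class medians of −0.96 to −0.81 (Ser3), 0.04 to 0.12 (Thr3) and −1.08 to −0.85 (difference). limma called 0 pairs with a pseudocount of 5 reads, with a filter of 10 reads and without any single screen. The edgeR pair test, chosen after seeing the data, called 1064 with the Thr3 form and 34 with the Ser3 form higher, and without 1 screen 564 to 1140 and 4 to 50. A filter of 10 reads, the DESeq2 Wald test and dispersions from 9 galactose libraries kept the counts of the galactose change within 1.5 times. For the named variants, 574 of the alternative values kept their call and direction, 89 lost the call, 41 of them without the replicate block, and 12 gained one. The cause was not tested. With a median of 16 to 69.5 reads at T3, changes of sequences with low reads were limited by depth.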
